A study of Sus scrofa with 28 samples.

Results

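Glycolysis is the chain of cytosolic enzymes that splits glucose 6-phosphate into pyruvate and yields ATP without oxygen. In skeletal muscle it is fed mainly by glycogen, and after slaughter it runs on until the muscle has turned acid, which is why its enzymes are of interest for the colour and structure of ham. The 6 enzymes described here are GPI, which turns glucose 6-phosphate into fructose 6-phosphate, PFKM, the muscle phosphofructokinase that commits the sugar to the pathway, TPI1, which interconverts the triose phosphates, GAPDH, which oxidises glyceraldehyde 3-phosphate and passes electrons to NAD, PGK1, which makes ATP from the product of GAPDH, and ENO3, the muscle enolase that forms phosphoenolpyruvate.

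Every array probe that the platform annotation lists with exactly 1 symbol, equal to one of these 6, was taken. That gave 6 of the 211 genes named on the array, with 48 of its 4608 probes and of the 509 probes that carry 1 symbol. GAPDH has 22 of them, ENO3 11, TPI1 9, PFKM 3, GPI 2 and PGK1 1. Probes were matched by name alone, but the members and the rule were chosen with earlier results of these data known. Several probes are separate cDNA clones of 1 gene, and 2 of those listed for TPI1 carry the same sequence tag, so probes are not replicates of a condition. No build is named for the array, so no coordinates are given.

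The study set semimembranosus muscle, a large muscle of the ham, of 7 normal pigs (low L*, a measure of lightness) against 7 pigs with destructured meat (high L*). The groups are described by L* alone, with no treatment named. Breed, age, sex and time of sampling are not given here. Total RNA of each pig was labelled with radioactive phosphorus and hybridised to 1 nylon cDNA array with every probe in a left and a right part, so the pig is the replicate. The pigs carry separate numbers within a group, and 1 number occurs in both groups (normal replicate 2 and destructured replicate 3). The study counts 14 pigs, and whether that number is the same animal is not stated.

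The deposited intensities run from 0.0393 to 443.3 on a linear scale, with column medians from 1.69 to 3.67. All levels below are log2 intensities after quantile normalization, averaged over the left and right part of a pig, and all differences are destructured minus normal. Levels of different probes cannot be set against each other, because the amount and length of the DNA can differ from spot to spot. The left and right parts correlated at 0.869 to 0.963 across probes in 13 pigs, but at 0.373 in normal replicate 3. Of the fast fibre marker genes 8 of 12 are on the array, with 120 probes, and of the slow fibre markers 5 of 8, with 17 probes. Among the fast fibre probes 48 had positive and 72 negative log2 fold changes, and none passed the adjusted threshold. Mean levels over the fast fibre probes ran from 1.60 to 1.74 in normal and from 1.54 to 1.64 in destructured pigs. The slow fibre probes were 9 positive and 8 negative, with a median of 0.0056, and none passed. The 3 fibroblast and matrix markers measured (FN1, MGP and MMP2) had a median log2 fold change of -0.34, with mean levels of 1.81 to 3.19 in normal and 1.75 to 2.30 in destructured pigs, and none passed. Of the adipocyte, endothelial and immune markers 2 of 6, 1 of 4 and 1 of 4 were measured, with median log2 fold changes of 0.17, -0.031 and 0.0056, and none passed. No blood or nerve marker of the lists was matched to a probe. The part of these cells in the values was not tested. In a muscle homogenate, fewer cells of a type and less RNA per cell cannot be told apart.

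None of the 48 glycolytic enzyme probes passed the adjusted threshold of 0.05 in the limma comparison of destructured with normal muscle, where 0.651% of all 4608 probes did. None passed either when both pigs that share a number were left out, where 3 of all 4608 probes (0.0651%) did. At an unadjusted p under 0.05 stood 2 of the 48 (4.17%), against 13.0% of all probes. That count was 5 of 48 without normal replicate 6 (616 of all 4608 probes), 4 without normal replicate 1, normal replicate 4 or destructured replicate 4 (738, 561 and 559 of all), and 4 with the right array part of normal replicate 3 left out (722 of all). By an exact permutation test over the 14 pigs none of the 48 passed after adjustment and 3 did before it, against 59 and 673 of all 4608 probes. In none of the 48 did the groups lie apart without overlap, as they did for 1.28% of all probes. Such groups alone reach the smallest possible p of the permutation test, 0.000583. Either rule called 59 of all 4608 probes, so these 2 results are not separate. A positive log2 fold change was found for 21 of the 48 (43.8%), against 46.3% of all probes. The median log2 fold change was -0.047 over the 48 and -0.021 over all probes, and the median absolute value was 0.17 and 0.16. The values ranged from -0.54 for a probe listed for TPI1 to 0.69 for one listed for GAPDH.

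**Figure D1:**
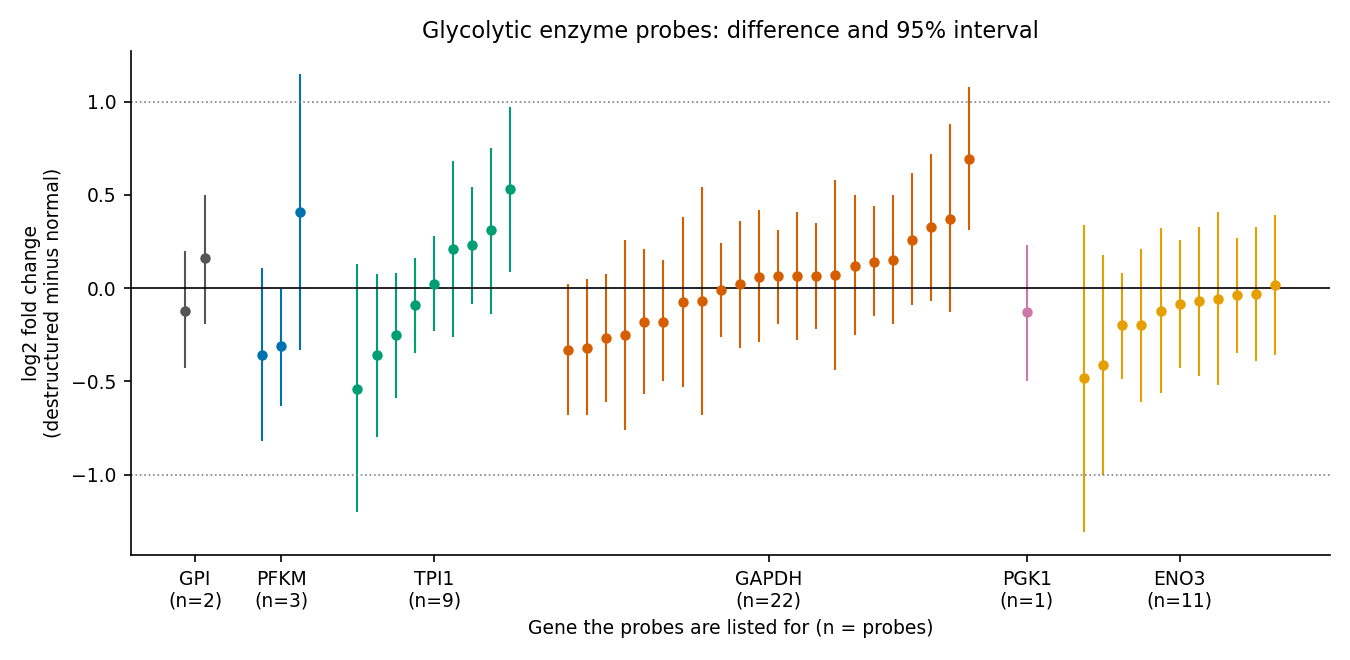
Log2 fold change (destructured minus normal, vertical axis) of each of the 48 probes with its 95% interval, grouped by the gene it is listed for; the dotted lines mark a 2-fold change either way. Values lie on both sides of 0 for GPI, PFKM, TPI1 and GAPDH, and 10 of the 11 ENO3 probes lie below 0.

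The intervals give the precision of each difference in spot signal, without adjustment for the number of probes. They do not bound a change of the transcript, since how far a spot follows its transcript was not tested. For 43 of the 48 probes (89.6%, against 93.2% of all probes) the 95% interval of the difference lay within a 2-fold change in either direction. The other 5 were the PFKM probe 5130, the TPI1 probe 5189, the GAPDH probe 6958 and the ENO3 probes 6529 and 8951. Without the right array part of normal replicate 3, 47 of the 48 intervals lay within those bounds, against 97.1% of all probes, and only that of the ENO3 probe 8951 did not.

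GPI stands at the entry of the pathway. Its probe 6974 had the lowest, median and highest levels 1.29, 1.53 and 2.20 in normal pigs and 1.49, 1.67 and 2.39 in destructured pigs. The groups overlapped from 1.49 to 2.20. Normal replicates 1 and 2 (1.29 and 1.44) lay below all destructured pigs, and 1 destructured pig lay above all normal ones. The log2 fold change was 0.16 (SE 0.16, limma adjusted p = 0.734). Probe 7787 had 0.46, 1.18 and 1.44 in normal and 0.78, 0.93 and 1.40 in destructured pigs, with a log2 fold change of -0.12 (SE 0.15, limma adjusted p = 0.793). The 2 probes thus had opposite signs, and neither difference exceeded the spread between pigs. Across the 14 pigs, after removing group means, they correlated at 0.58, and at 0.63 with the right part of normal replicate 3 left out.

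PFKM catalyses the step at which muscle glycolysis is chiefly regulated. Its probe 8074 had the lowest, median and highest levels -0.020, 0.36 and 1.14 in normal pigs and -0.043, 0.035 and 0.28 in destructured pigs. All 7 destructured pigs lay below the normal mean of 0.42, while 1 normal pig, replicate 1, lay among them and normal replicate 3 stood far above the rest. The log2 fold change was -0.31 (SE 0.15, 95% interval -0.63 to 0.00068, limma adjusted p = 0.385). An exact two-sided permutation test gave p = 0.0192, and 0.222 after adjustment over all probes. With the right part of that pig's array left out the value was -0.20 (SE 0.10, limma adjusted p = 0.374).

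The second PFKM probe, 7526, had a log2 fold change of -0.36 (SE 0.22), with levels from 2.75 to 4.73 in normal and from 3.00 to 3.68 in destructured pigs. It was -0.18 (SE 0.16) when that array part was left out. The third, 5130, lay at 5.88 to 6.65 in 6 normal pigs and at 6.17 to 6.67 in the destructured pigs, with normal replicate 3 alone at 3.73. Its log2 fold change of 0.41 (SE 0.35) was the only positive value for PFKM and became 0.035 (SE 0.13) without the right part of that array, whose own reading was 1.11 against 6.35 on the left part. None of the 3 PFKM probes passed with or without it.

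TPI1 keeps the triose phosphates in balance, so that all the carbon of the split sugar can go on through the pathway. Of its 9 probes 5 had positive and 4 negative log2 fold changes, from -0.54 to 0.53, with a median of 0.024. Probe 8657 had the lowest, median and highest levels 1.92, 3.25 and 3.65 in normal pigs and 3.47, 3.70 and 3.94 in destructured pigs. Of the destructured pigs 5 lay above every normal pig, and the other 2 (3.47 and 3.49) lay inside the upper normal range. The log2 fold change was 0.53, or 1.45-fold (SE 0.21, limma adjusted p = 0.264, exact two-sided permutation p = 0.00641 before and 0.123 after adjustment). Normal replicate 3 was the lowest pig. Without its right part the log2 fold change was 0.33 (SE 0.11, limma adjusted p = 0.143), the unadjusted p of that fit being 0.00908.

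The TPI1 probe with the highest mean level, 8933, had 2.65, 3.53 and 4.59 in normal and 3.65, 3.81 and 4.04 in destructured pigs, and a log2 fold change of 0.21 (SE 0.22) that became 0.048 without that array part. Here the destructured pigs lay wholly inside the normal range. Probe 5189 carried the most negative value, -0.54 (SE 0.32); normal replicate 3 stood at 5.10 and the next normal pig at 2.97, and without the right part the value was -0.15 (SE 0.13). Probe 8123 did not depend on that part: it had a log2 fold change of -0.36 (SE 0.21) with it and -0.42 (SE 0.19, limma adjusted p = 0.279) without it. Its levels spanned 2.00 to 3.62 in normal and 1.69 to 2.45 in destructured pigs, so the groups overlapped. The 2 probes that carry the same sequence tag, 8072 and 8933, correlated at 0.26 across the 14 pigs after removing group means, and at 0.066 without that array part.

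GAPDH links the upper and lower parts of glycolysis and is often used as a reference transcript. Of its 22 probes 13 had positive and 9 negative log2 fold changes, with a median of 0.063 and a range from -0.33 to 0.69. With the median of each table place subtracted in each pig, 10 were positive, with a median of -0.012. Probe 6958 came nearest to the threshold of all 48. Its lowest, median and highest levels were 1.57, 1.97 and 2.41 in normal pigs and 2.08, 2.84 and 3.28 in destructured pigs. All 7 destructured pigs lay above the normal mean of 1.99, and 5 of them above every normal pig, with replicates 2 and 6 inside the normal range. The log2 fold change was 0.69, or 1.62-fold (SE 0.18, 95% interval 0.31 to 1.08, limma adjusted p = 0.0744), and its p ranked 78 among the 4608 probes. The exact two-sided permutation test gave p = 0.00583, and 0.120 after adjustment.

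This probe kept its sign in all 30 alternatives run on it, with log2 fold changes from 0.57 to 0.90, and passed in 4. Alternatives that change only the test, filter or threshold, the block among them, leave the value at 0.69 by construction. The pass at 0.10 follows from the limma adjusted p of 0.0744 in the main fit. It passed with the right part of normal replicate 3 left out (0.63, SE 0.16, limma adjusted p = 0.0402), without normal replicate 7 (0.76, limma adjusted p = 0.0476), with the array part as a replicate block (0.69, limma adjusted p = 0.0227), and at a threshold of 0.10. The value was 0.80 from the left parts and 0.59 from the right parts alone, and neither passed (limma adjusted p = 0.102 and 0.465). Left and right values of this probe correlated at 0.32 across pigs after removing group means. The block fit used a common correlation of 0.140 for all probes, so its pass rests partly on replication within a pig. That fit called 107 of all 4608 probes, against 30 in the main fit.

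No other GAPDH probe had an unadjusted p under 0.05 with all columns. The next largest values were 0.37 (SE 0.24) for probe 7784, 0.33 (SE 0.19) for 7086 and -0.33 (SE 0.17) for 7080. With the right part of normal replicate 3 left out, probe 4613 went from 0.071 (SE 0.24) to 0.36 (SE 0.15), with an unadjusted p of 0.0237 and a limma adjusted p of 0.222. The probe with the highest mean level, 8812, had 3.22, 4.17 and 4.54 in normal and 4.11, 4.35 and 4.58 in destructured pigs, with a log2 fold change of 0.26 (SE 0.17, limma adjusted p = 0.521) that became 0.084 without the right part of normal replicate 3. Averaging the 22 probes in each pig gave 1.64 ± 0.102 in normal and 1.68 ± 0.0558 in destructured muscle (SD, n = 7 each). That difference was 0.034 (SE 0.096, limma adjusted p = 0.912), with normal pigs from 1.45 to 1.75 and destructured pigs from 1.61 to 1.78.

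PGK1, the first ATP-forming enzyme of the lower pathway, has 1 probe, 5644. Its lowest, median and highest levels were 2.51, 2.76 and 3.29 in normal pigs and 1.96, 2.71 and 3.09 in destructured pigs. The groups covered the same range except for destructured replicate 3, the lowest pig. The log2 fold change was -0.13 (SE 0.17, 95% interval -0.50 to 0.23, limma adjusted p = 0.798). Its left and right values correlated at 0.68 across pigs, the second highest of the 48, so the array measured this probe more repeatably than most. The difference between groups was still within the spread between pigs. Without destructured replicate 3, whose number also occurs among the normal pigs, the difference was -0.011. It was -0.0033 without both pigs that share a number.

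ENO3 is the enolase of adult muscle. Of its 11 probes 10 had negative log2 fold changes, from -0.48 to -0.029, and the remaining one, 8644, was at 0.018. None passed, and none had an unadjusted p under 0.05 (the smallest was 0.148). That one-sidedness depended on the processing. Negative were 8 of 11 with the right part of normal replicate 3 left out and 6 of 11 with the median of each table place removed. With both steps together 5 of 11 were negative, the median log2 fold change of the 11 being 0.0060. On the deposited scale 3 of 11 were, where the median of all probes was itself 0.21 and 10 of the 11 lay below it. It stayed at 10 of 11 with median centring, from the right parts and without the pigs that share a number. An offset of 1 gave 11 of 11, the left parts 8, and leaving out 1 pig 6 to 11. Probe 6776, with the smallest p, had -0.62, -0.22 and 0.23 in normal and -0.48, -0.38 and -0.094 in destructured pigs, with a log2 fold change of -0.20 (SE 0.13). The destructured pigs lay inside the normal range.

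The ENO3 probe with the highest mean level, 6529, lay at 3.01 to 3.37 in 6 normal pigs and at 5.16 in normal replicate 3, against 2.48 to 3.49 in destructured pigs. Its log2 fold change was -0.41 (SE 0.28) with that array part and -0.16 (SE 0.14) without it. Probe 8951 varied most between normal pigs, from 1.35 to 4.15 around a median of 1.89, the median of the destructured pigs also being 1.89. Normal replicates 3 and 4 stood at 4.15 and 4.04, and the other normal pigs at 2.06 or less. The probe had the largest negative value for ENO3, -0.48 (SE 0.39). It gave -0.35 (SE 0.33) without the part, normal replicate 4 being kept. Averaged over the 11 probes, normal replicate 3 stood at 2.14 and the other normal pigs at 1.14 to 1.44, while the destructured pigs lay at 1.07 to 1.35. The averaged difference was -0.15 (SE 0.15, limma adjusted p = 0.690).

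**Figure D2:**
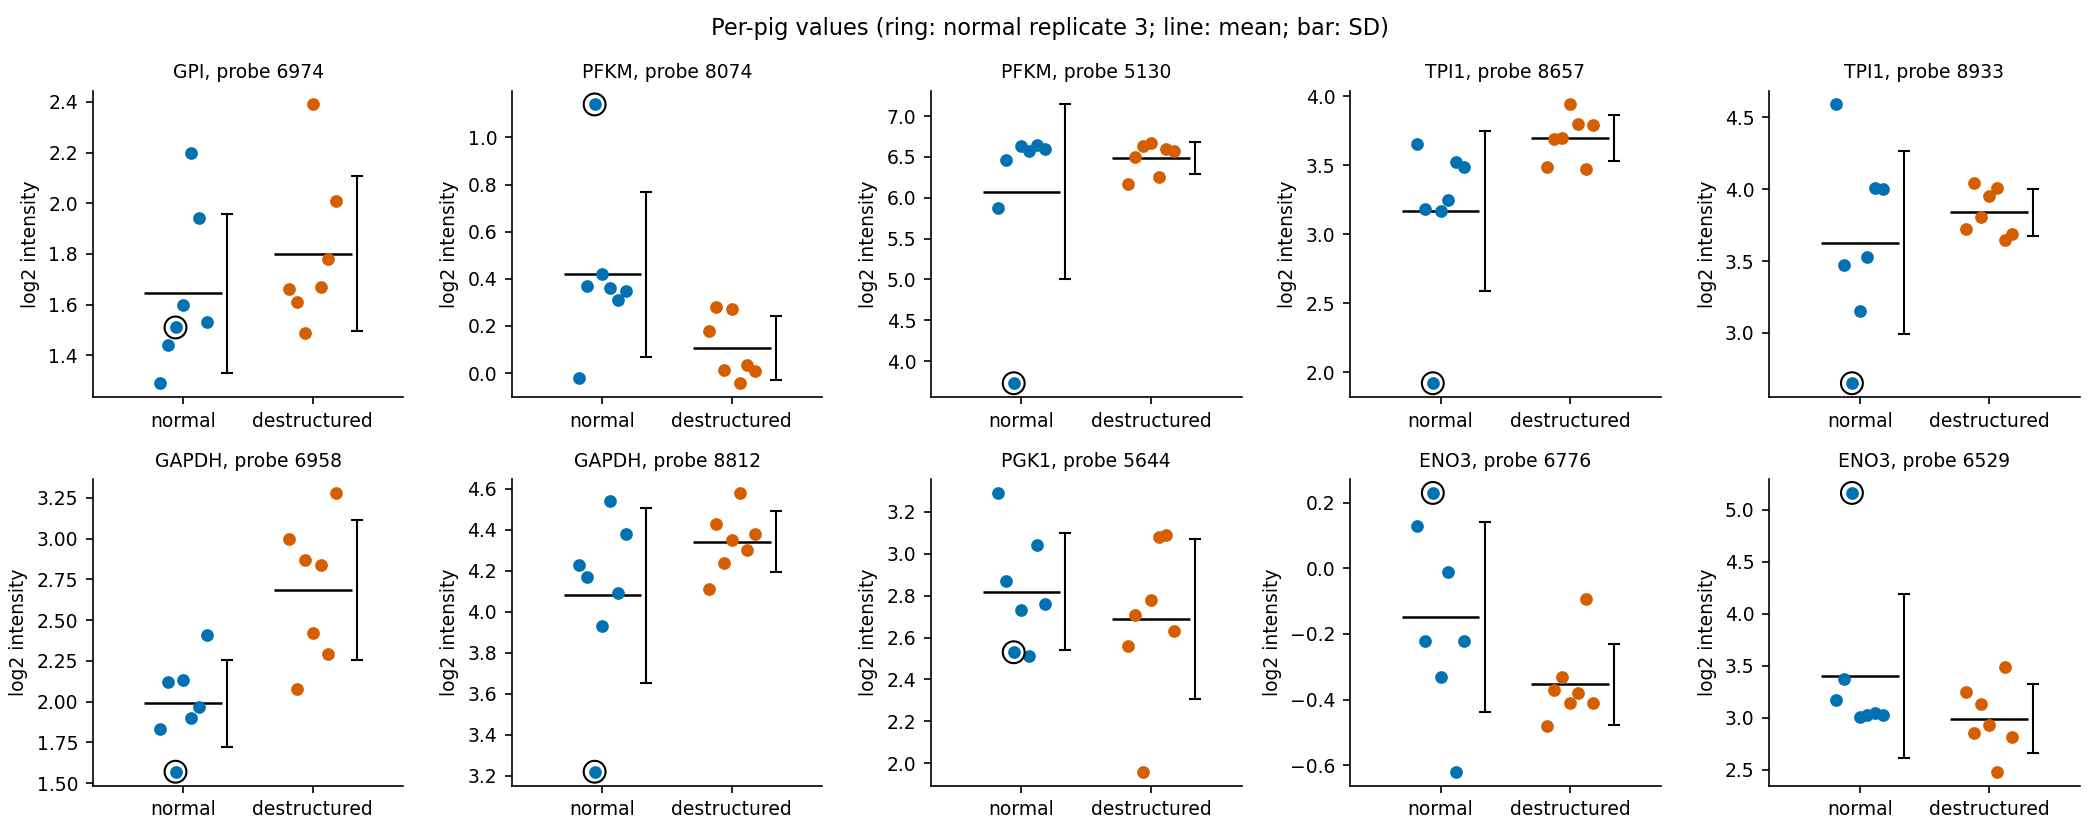
Log2 intensity (vertical axis) of each pig for the 10 probes with the smallest p or the highest mean level of their gene, with 7 normal and 7 destructured pigs per panel; the line is the group mean, the bar the SD, and the ring marks normal replicate 3. For PFKM 5130 and ENO3 6529 that pig alone lies far from the other 13, while for GAPDH 6958 it lies at the lower end of the normal pigs and 5 destructured pigs exceed all of them.

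Averaging all probes of a gene left every one of the 6 differences small. For GPI it was 0.021 (SE 0.14), for PFKM -0.086 (SE 0.11), for TPI1 0.0058 (SE 0.099) and for PGK1, with its single probe, -0.13 (SE 0.17). The smallest limma adjusted p among the 6 genes was 0.690, for ENO3. In TPI1 the averages ran from 1.99 to 2.28 in normal and from 2.03 to 2.28 in destructured pigs, so the groups overlapped almost completely. These averages mix clones of very different signal.

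In normal replicate 3 most of the 48 probes read differently on the right part of the membrane than in any other pig. The median absolute difference between left and right was 1.28 over the 48 probes in this pig, and 0.15 to 0.38 in the other 13. Over all 4608 probes it was 0.85 in this pig. For 30 of the 48 probes (62.5%) the right part read outside the range of the 26 columns of the other pigs, 18 above it and 12 below it. The corresponding share was 49.3% of all probes. The left part of the same pig read outside for none of the 48, against 4.10% of all probes. Whether the 48 differ from the array in this respect was not tested.

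**Figure D3:**
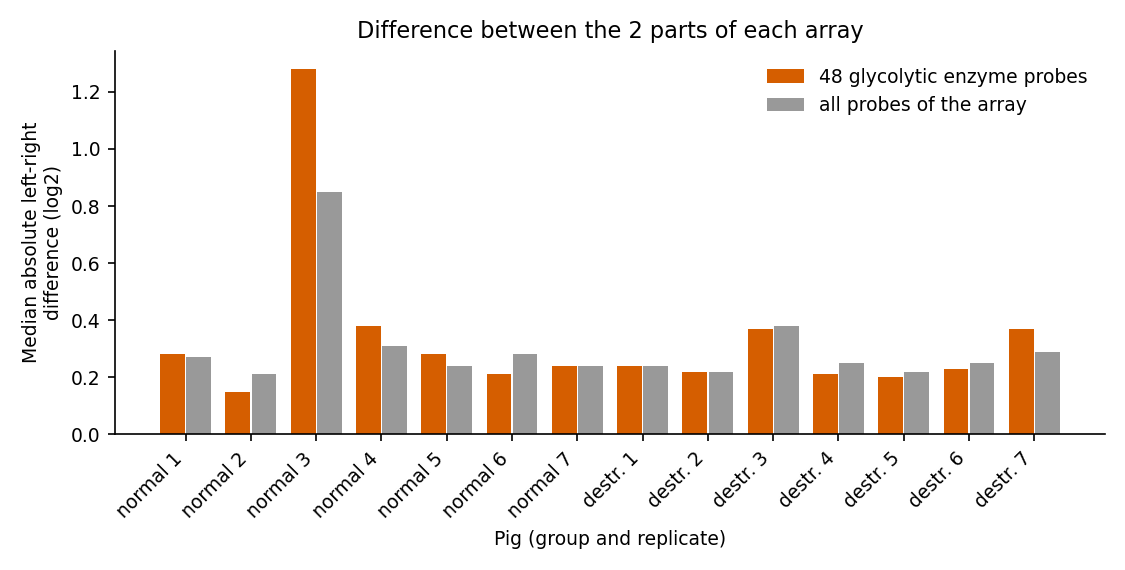
Median absolute difference between the left and right part of each array on the log2 scale (vertical axis), by pig, over the 48 glycolytic enzyme probes and over all 4608 probes. Normal replicate 3 stands at 1.28 and 0.85, and every other pig at 0.38 or less.

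The normal pigs were the more variable group. The SD was larger in normal than in destructured pigs for 38 of the 48 probes, with median SDs of 0.390 and 0.221, and for 74.0% of all probes. When the right part of normal replicate 3 was left out it was larger for 31 of the 48, with median SDs of 0.263 and 0.218, and for 60.9% of all probes. Leaving it out changed the sign of 4 of the 48 differences, 2 of them listed for GAPDH and 2 for ENO3, and lowered the median SE from 0.17 to 0.14. GAPDH probe 6958 then passed, and no other of the 48 did, against 135 of all 4608 probes.

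**Figure D4:**
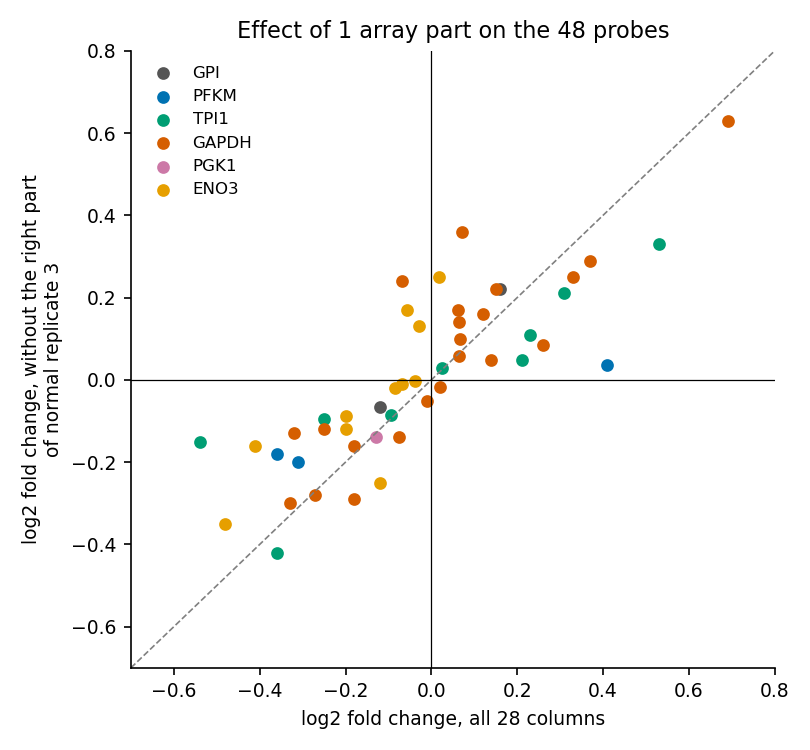
Log2 fold change (destructured minus normal) of the 48 probes with all 28 columns (horizontal axis) and with the right part of normal replicate 3 left out (vertical axis), coloured by gene. The dashed line marks equal values. The PFKM probe at 0.41 and the TPI1 probe at -0.54 move to 0.035 and -0.15, while the GAPDH probe at 0.69 stays at 0.63.

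Probes listed for the same gene were little correlated across pigs. Over the 326 pairs of the same gene the median correlation across the 14 pigs, after removing group means, was 0.035, and over the 802 pairs of different genes it was -0.039. Within GAPDH the 231 pairs had a median of -0.025 and ranged from -0.93 to 0.80. ENO3 had the highest median of the genes with more than 2 probes, 0.45 over 55 pairs, and PFKM the lowest, -0.71 over 3 pairs. Both depended on 1 array part, and were 0.081 and 0.24 when it was left out. All probes share the same 14 arrays, so these are descriptions. The names therefore stand as the annotation lists them, and whether each row of values belongs to its listed clone was not tested here.

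Whether the array's own repeatability limits the agreement between probes of a gene was not tested. Left and right values of a probe correlated across pigs, after removing group means, at a median of 0.18 over the 48 and 0.15 over all probes, and at 0.24 and 0.23 without normal replicate 3. The correlation exceeded 0.5 for 9 of the 48 (18.8%) and for 12.5% of all probes. Those 9 were ENO3 5217 (0.77), PGK1 5644, GAPDH 7784, 7651, 4924, 4915 and 7086, and TPI1 8123 and 8933. Neither of the probes with an unadjusted p under 0.05 was among them. The log2 fold changes of these 9 ran from -0.36 to 0.37.

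The difference between groups also varied with where a probe stands in the table. Places repeat every 72 rows as 6 rows of 12 columns. Columns 2 to 7 held 27 of the 48 probes, 14 with positive and 13 with negative differences, where 64.3% of all probes were positive (median 0.018, against 0.081 over all probes there). The remaining columns held 21, with 7 positive and 14 negative, where 28.3% of all probes were positive (median -0.12, against -0.11). Of the 11 ENO3 probes 7 lie in those remaining columns, all with negative values, and 4 in columns 2 to 7, 1 of them positive. When the median of each place was subtracted in each pig, 22 of the 48 were positive and none passed, where 12 of all 4608 probes did. GAPDH 6958 was then at 0.85 (limma adjusted p = 0.111) and TPI1 8657 at 0.59 (limma adjusted p = 0.338). What part the place on the array has in the single values was not tested further.

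Few other genes of the pathway are on the array. Of 35 further genes of glycolysis and its ends, 3 were measured, each with 1 probe, and none passed. FBP1, which opposes phosphofructokinase, had a log2 fold change of 0.28 (SE 0.16), PGM1, which joins glycogen breakdown to glycolysis, -0.27 (SE 0.17), and GOT1, an aminotransferase of the malate-aspartate shuttle, -0.23 (SE 0.21). The other genes of that list were not matched to a probe with 1 symbol. Of 21 genes of glycogen supply 7 were measured with 17 probes, 7 positive and 10 negative (median -0.051). None passed, and 1 had an unadjusted p under 0.05, a probe listed for PRKAG1, a regulatory subunit of the AMP-activated kinase, at -0.38 (SE 0.13, limma adjusted p = 0.188). The other PRKAG1 probes, 5910 and 8648, were at 0.14 (SE 0.27) and -0.071 (SE 0.21).

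For the probe with the highest mean level of each gene, the most similar named probes of other genes were sought by the correlation of group-centred values over the 14 pigs. PFKM 5130 was closest to probes listed for ADIPOR2 and PSP-I (0.97 each), GAPDH 8812 to MYH1 (0.92) and UCP3 (0.90), ENO3 6529 to TNNC2 (0.93) and MYOZ1 (0.91), and TPI1 8933 to MYLPF and GSTA1 (0.89 each). With the right part of normal replicate 3 left out the same pairs stood at 0.70 and 0.54, 0.43 and 0.34, 0.52 and 0.60, and 0.81 and 0.78. GPI 6974 was closest to TNNT3 (0.73) and FBP1 (0.70), and PGK1 5644 to LGALS1 (0.64) and PRKAG3 (0.62). These stood at 0.74 and 0.66 and at 0.66 and 0.61 without that part. All probes named here were picked as the most similar among 487 to 508 compared. Whether their correlations exceed the highest that so many unrelated probes would give was not tested. They are descriptions only.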

How the data were processed

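Semimembranosus RNA of 14 pigs, as the study counts them, was measured on 14 nylon cDNA arrays of 4608 probes, each with 2 parts, giving 28 columns. Per the series' design text, spots were quantified with BZscan. The deposited table holds a linear intensity for each spot, and whether the authors scaled it or took off background is not stated there. Intensities were taken to log2, quantile normalized and averaged over both parts of a pig. Destructured and normal pigs were compared by limma 3.58.1 (R 4.3.3; lmFit, eBayes, group as the only term) over all probes, with Benjamini-Hochberg adjustment at 0.05. Intervals are 95% intervals of that fit. Figures used matplotlib 3.10.9. The platform's Entrez identifier matched RefSeq for 5 of the 6 genes, and TPI1 was matched by symbol.

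Per gene, the probes with the smallest p and the highest mean level were described by pig, together with others picked after their values were seen. The members, gene lists, alternatives and the naming rule were chosen with earlier results of these data known. The number of arrays limits the precision. Nothing in the labels gives a batch. In all 31 alternatives were run.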

Additional observations from a re-analysis of the deposited data

Results flagged for a closer look

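Among the 96 groups of 7 pigs (48 probes by 2 groups), 17 held a pig that stood far from the other 6. Dixon's criterion on the gap to the nearest pig was used, which nominally flags about 1 in 20 groups. These groups share the same 14 arrays, so that rate is no test here. The count was not made over all 4608 probes, so it cannot be called particular to the 48. On the right part of normal replicate 3, 49.3% of all probes read outside the range of the other pigs. Of the 17, 14 were normal groups and 12 of these concerned normal replicate 3, the pig whose array parts disagree; each value below is a log2 level with the nearest pig after it.

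Normal replicate 3 was the highest normal pig for the probes listed for PFKM 8074 (1.14, next 0.42), TPI1 5189 (5.10, next 2.97), GAPDH 8117 (2.09, next 1.28), GAPDH 4613 (3.19, next 1.96), GAPDH 8654 (4.31, next 2.41), ENO3 6529 (5.16, next 3.37), ENO3 5217 (0.61, next -0.015), ENO3 8406 (2.89, next 1.40) and ENO3 5187 (1.10, next 0.29). It was the lowest for PFKM 5130 (3.73, next 5.88), TPI1 8657 (1.92, next 3.17) and TPI1 8263 (1.82, next 2.56). In all 12 the left part of its array lay inside the range of the other pigs' columns.

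Other pigs stood apart in 5 groups. Normal replicate 1 was the lowest for GPI 7787 (0.46, next 1.11) and normal replicate 4 the highest for GAPDH 8528 (1.14, next 0.54). Among destructured pigs, replicate 7 was the highest for GAPDH 8361 (1.17, next 0.80), replicate 6 for ENO3 6776 (-0.094, next -0.33) and replicate 3 for ENO3 5217 (0.93, next -0.18).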

How the results depend on the processing

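The count of glycolytic enzyme probes past the threshold, 0 of 48, became 1 in 4 of 31 alternatives, each time the GAPDH probe 6958: with the array part as a replicate block, without the right part of normal replicate 3, at a threshold of 0.10, and without normal replicate 7. The call at 0.10 was already given by the main fit, where this probe had a limma adjusted p of 0.0744. Leaving out 1 pig at a time gave 0 to 1. The block uses the part number in the titles, with the pig as a random block. The numbers mark places on an array, so they pair no pigs of different groups. Both parts of a pig enter that fit, with a common correlation of 0.140 between them for all probes. The median log2 fold change of the 48 was -0.047 and moved beyond the spread between pigs on the deposited scale, to 0.19, where that of all probes was 0.21; leaving out 1 pig gave -0.066 to 0.0068. On that scale 37 of the 48 were positive, against 21. Among the 10 probes with the smallest p or highest mean level of their gene, signs turned on the deposited scale for PGK1 5644 (0.038) and ENO3 6776 (0.081), from the left parts for TPI1 8933 (-0.13) and GAPDH 8812 (-0.0090), from the right parts for GPI 6974 (-0.16), with array weights for PFKM 5130 (-0.0043), and with the right part of normal replicate 3 left out and position medians removed for PFKM 5130 (-0.085), TPI1 8933 (-0.013) and GAPDH 8812 (-0.084). The cause of these turns was not tested. The count over all probes was 30. It was 1 from the right parts, 12 from the left parts, 2 on the deposited scale, 6 with median centring and with trended robust variances, 3 without the pigs that share a number, 12 with position medians removed and 18 with that array part left out as well. It was 49 and 56 with the 2 filters, 53 with an offset of 1, 59 by the exact permutation test, 107 with the block, 111 at 0.10, 129 with array weights and 135 with the array part alone left out. Leaving out 1 pig gave 2 to 84. Filters on the dimmest 25% and 50% of probes kept 37 and 28 of the 48. No background level accompanies the intensities, so dim probes cannot be told from unhybridised ones.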
